A study of Homo sapiens with 6 samples.

Results

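The autosomes of WT and PARP3-/- LN229 cells were compared in fixed windows of 5 Mb, called bins. Each bin held the protein_coding genes that start in it, and a gene was taken when its mean raw count over the 6 libraries was 50 or more. There were 11441 such genes among the 33841 genes listed. They lay in 555 bins, of which the 512 with 5 or more genes were kept, and the 108 genes of the other 43 bins were left out. A kept bin held between 5 and 122 genes, with a median of 16. The value of a bin, called its shift, was the median over its genes of the log2 ratio of PARP3-/- over WT in normalized counts, minus the median over all 11441 genes. The bins themselves were chosen by position and by mean count. The runs, segments and borders described below were chosen by the shifts and gene ratios, so their values are a description and carry no test.

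LN229 is an established human glioblastoma cell line. RNA of the parental cells, labelled WT-PARP3+/+, was set against RNA of the PARP3 knockout cells made from them with CRISPR/Cas9, with 3 biological replicates of each genotype, proliferating and with no added agent. According to the methods, guides were directed to exons 2 and 5 of PARP3 and the knockout cells were grown from single colonies. For LN229 more than a single clone was kept, and the labels do not say which was sequenced, so the loss of PARP3 and any other difference between that clone and the parental cells cannot be told apart. The methods also state that loss of PARP3 in the colonies was checked by sequencing and western blotting. Beyond that check, no measurement of DNA copy number is described.

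The autosomal genes are strung along a short arm, named p, and a long arm, named q, with the centromere between them. How much of an RNA a cell holds depends on the promoter of the gene and the decay of its RNA, but also on the chromatin around the gene and on how many copies of that stretch of chromosome the cell carries, and the last pair is shared by neighbours. A median over neighbouring genes therefore reads what they have in common and mutes what belongs to each gene alone. PARP3 is an enzyme that attaches single ADP-ribose units to proteins and to the ends of broken DNA, and it is known for its part in joining double-strand breaks.

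The libraries held between 29692065 and 46010369 counted reads. The replicate 1 library of each genotype stood apart from the others of its genotype: the chi-square of its counts against replicates 2 and 3 was 64.3 to 93.7 per degree of freedom in WT and 48.7 to 60.6 in PARP3-/-, against 10.9 and 3.80 between replicates 2 and 3. Results are therefore also given from pairs 2 and 3 alone, a choice made after the data were seen. Genes known from glial and glioma cells were present, with VIM, an intermediate filament gene, at 3688 to 4382 normalized CPM (read counts scaled to a common library size) and NES, another of these, at 698 to 1063 CPM. GFAP, the filament of mature astrocytes, lay at 0.033 to 0.415 CPM. The epithelial genes EPCAM and CDH1, the blood cell gene PTPRC and the endothelial gene CDH5 had at most 4 reads in any library. Other genes known from such cells were not all this low. The keratin genes KRT18 and KRT8, also epithelial, had up to 6569 and 622 reads. The endothelial genes VWF and PECAM1 had up to 26 and 4 reads. Of the neuronal genes, SNAP25 and SYP had up to 489 and 110 reads, and RBFOX3 had at most 1. PARP3 had 1273, 942 and 995 reads in the WT libraries and 574, 1004 and 736 in the PARP3-/- libraries, so the genotypes overlapped and the libraries are named here by their labels.

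PARP3 starts at 51.9 Mb of chromosome 3 in the hg38 assembly and lies on the plus strand. Its bin, from 50 to 55 Mb, sits well inside the longest run of lower bins described below. The coding parts of the exons to which the guides were directed are shown because they mark the place that was cut on purpose, from which distances on chromosome 3 are measured. They read 5′ to 3′ on the plus strand of hg38, and capitals mark the first whole codon, which is the start codon in exon 2 (chr3:51943356-51943538) and codon 168 in exon 5 (chr3:51944778-51944910).
PARP3 exon 2: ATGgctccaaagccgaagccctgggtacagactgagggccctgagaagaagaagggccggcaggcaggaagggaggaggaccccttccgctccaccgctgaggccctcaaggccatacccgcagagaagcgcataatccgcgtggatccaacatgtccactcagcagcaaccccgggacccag
PARP3 exon 5: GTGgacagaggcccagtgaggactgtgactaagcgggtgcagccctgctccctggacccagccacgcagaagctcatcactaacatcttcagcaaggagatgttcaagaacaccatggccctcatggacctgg

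Expression differed between the genotypes over long stretches of some chromosome arms, on which bin after bin lay to the same side. Of the 512 bins, 80 had a shift below −0.1 and 81 a shift above 0.1, the limit used here for a shifted bin, and 351 lay between. Shifts ran from −0.352 to 0.285 with a standard deviation (SD) of 0.103, and the bins nearest the limit stood at −0.101 and −0.0981 on the lower side and at 0.102 and 0.0998 on the higher side. The error of a bin is given as the SD over the 3 pairs of same-numbered libraries, and its median was 0.0409. Differences that same-numbered libraries share cancel in it, so it can be smaller than the spread within a genotype. Shifts had the same sign in all 3 pairs in 79 of the 80 lower bins and in 76 of the 81 higher bins. The shifted bins were chosen from the same 6 libraries, so this agreement was largely fixed by that choice.

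The libraries of the genotypes did not overlap, with PARP3-/- lower, in 91 bins (17.8% of 512), and with PARP3-/- higher in 94 bins (18.4%). Tested with limma across all 512 bins, 51 bins were lower (9.96%) and 47 higher (9.18%) at a Benjamini-Hochberg adjusted p under 0.05, and 171 had an unadjusted p under 0.05. The test compared the bin medians of each library, and their difference can depart from the shift. At 115 to 120 Mb of 9q the shift was −0.195 and that difference −0.00784. Among the shifted bins, 45 were called lower and 42 higher. With the replicate number as a block, 91 bins were lower and 92 higher, and they included all 51 and all 47. Pairs 2 and 3 alone gave 109 lower and 93 higher bins. The counts of lower and higher calls fell to 27 and 26 without WT replicate 3, to 26 and 18 without PARP3-/- replicate 2 and to 19 and 9 without PARP3-/- replicate 3. Higher calls fell to 29 without WT replicate 2 and to 27 without PARP3-/- replicate 1. Whether a lower value comes from all cells or from a share of them cannot be told apart in bulk RNA.

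**Figure D1:**
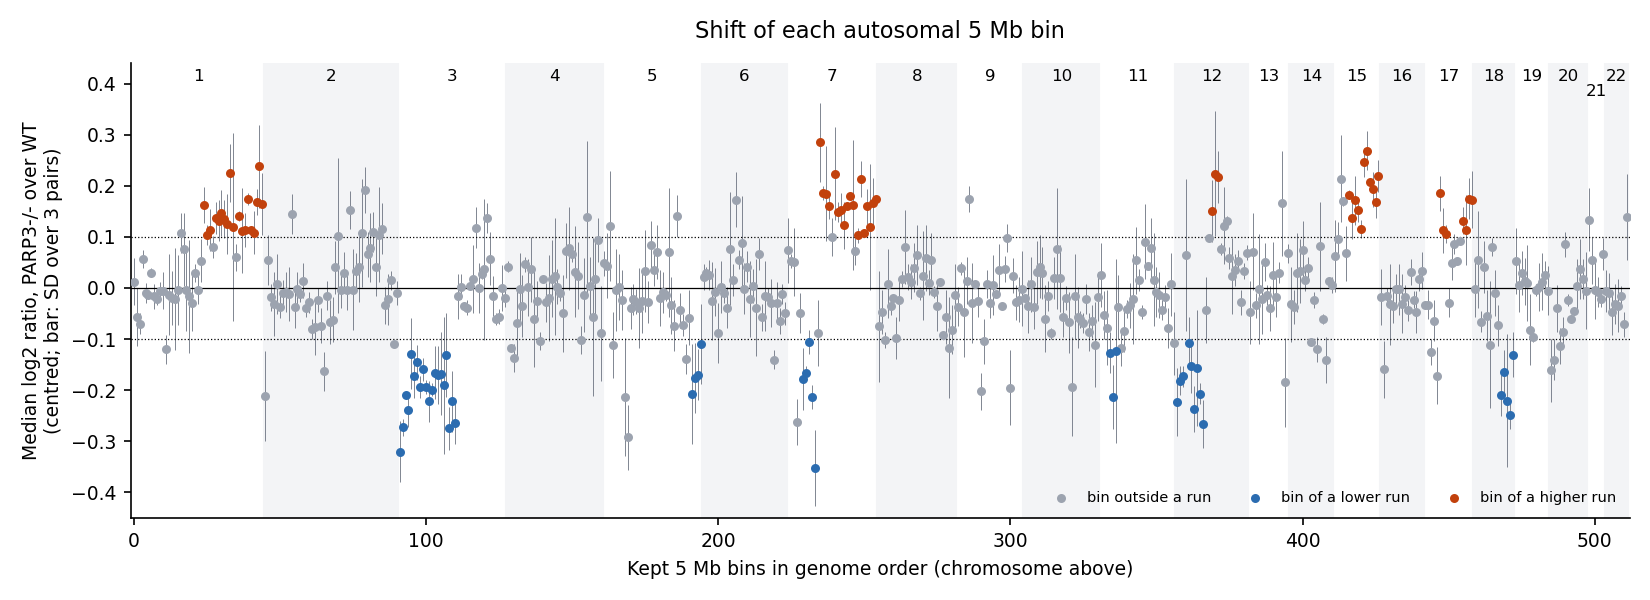
Shift of each of the 512 kept bins in genome order (x axis, autosomes 1 to 22), as the median log2 ratio of PARP3-/- over WT (y axis, log2 units). Error bars are the SD over 3 same-numbered pairs, dotted lines mark −0.1 and 0.1, and bins in runs are coloured blue where lower and orange where higher. Bins of 3p, 12p and the start of 12q form lower blocks, and those of 1q, 7q and 15q form higher blocks.

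Bins next to each other on an arm had similar shifts. Across 473 pairs of neighbouring bins Pearson's r was 0.672, across 434 pairs with a bin between them it was 0.622, and across 319 pairs that were 5 steps apart it was 0.473. The points share their libraries and many share an arm, and these values describe the order of the bins. A contrast within WT was set beside it. The difference of WT replicate 1 from the mean of WT replicates 2 and 3 had an SD over bins of 0.116, as wide as that of the shifts, but its r between neighbours was 0.0236. The separate pairs gave an r between neighbours of 0.548, 0.630 and 0.633, so the order of the bins was present in each of them.

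Runs were defined as 3 or more kept bins in a row on an arm that were all shifted the same way. There were 9 runs of lower bins, with 46 bins and 886 genes, and 10 runs of higher bins, with 58 bins and 1400 genes, on 12 of the 39 arms. The remaining 34 lower and 23 higher bins stood alone or in a row of no more than 2. In pairs 2 and 3 alone the medians of all 19 runs kept their sign and stayed beyond 0.1 in size. These libraries are among those that chose the runs, so this was largely fixed by that choice.

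Most gene ratios in these regions were small, and few genes passed a test on their own. Across the 17144 genes tested with edgeR, 3.33% were lower and 1.36% higher in PARP3-/- at an adjusted p under 0.05. Among the 11441 genes of the bins 314 were lower and 172 higher. Lower runs held 69 genes called lower and 6 called higher, and higher runs held 52 called higher and 33 called lower. These counts use the contrast that chose the runs, and nothing is read from them. With the block, 1562 genes of the bins were lower and 1731 higher, and with pairs 2 and 3 alone 1244 and 1325. Without WT replicate 3 the counts were 142 and 33, without PARP3-/- replicate 2 they were 134 and 32, and without PARP3-/- replicate 3 they were 144 and 38. Without WT replicate 2 or PARP3-/- replicate 1, 70 and 115 genes were called higher.

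To place the ends of the shifted stretches more finely than a 5 Mb grid allows, the genes of each arm were also divided in order into segments that minimize the absolute deviation from their medians. This gave 46 segments, of which 12 had a median beyond 0.1, 7 of them lower and 5 higher. Together they held 2587 genes, or 22.6% of those studied. Whole arms formed 6 of the 12 (1q, 3p, 7q, 12p, 15q and 20p).

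**Figure D2:**
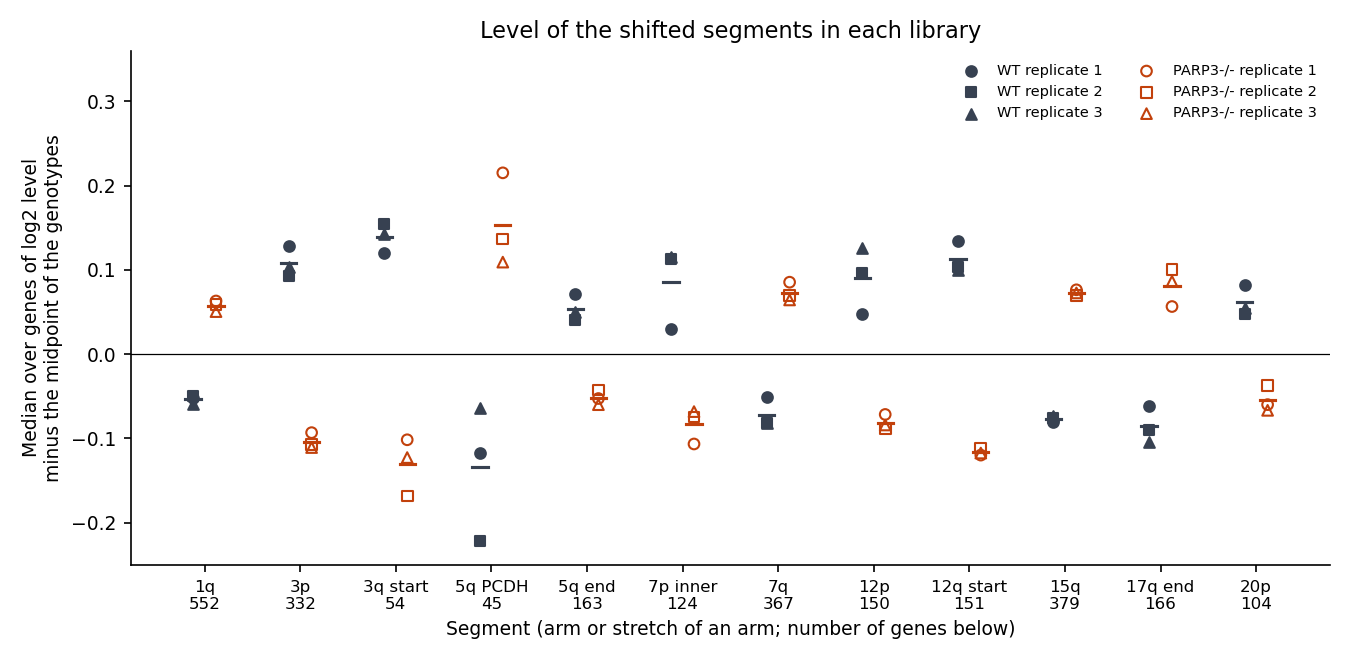
Median over genes of each library's log2 value relative to the midpoint of the genotype means (y axis, log2 units) in the 12 segments beyond 0.1 (x axis), with a point for each of the 3 WT and 3 PARP3-/- libraries and a dash at each mean. In each segment the libraries of the genotypes do not overlap, which the choice of segments favours, and the widest spread within a genotype is in the segment of 5q with the protocadherin genes (PCDH), where the WT libraries lie between −0.222 and −0.0638.

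The short arm of chromosome 3 was lower along its full length. All of its 16 kept bins lay below −0.1, from −0.129 to −0.320, and the median over their 328 genes was −0.206 ± 0.007 (SD over 3 pairs), which is a change of −13.3%. The library medians, as log2 distance from the midpoint of the genotypes, were 0.125, 0.0923 and 0.105 in WT and −0.0931, −0.105 and −0.110 in PARP3-/-. Libraries of each genotype thus stayed within a narrow band on their own side. Of the 328 genes, 292 (89.0%) had a ratio below the median of all genes. The genotypes' libraries did not overlap in any of the 16 bins, 14 bins were called lower by limma, and with the block all 16 were. Over all 512 bins, 17.8% did not overlap with PARP3-/- lower, 9.96% were called lower, and with the block 91 bins were. The run was chosen by shifts in the same libraries, so its counts were largely fixed by that choice.

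The genes of 3p with the highest counts did not all follow the arm. TKT, a transketolase of the pentose phosphate pathway, had 1228, 1084 and 1098 CPM in WT and 938, 961 and 912 CPM in PARP3-/-. RPL32, a protein of the large ribosomal subunit, had 724, 611 and 592 CPM in WT and 511, 528 and 511 CPM in PARP3-/-. Neither gene overlapped between the genotypes. Of all 11441 genes of the bins, 11.4% had all PARP3-/- libraries below all WT libraries and 12.2% had them above. CTNNB1, the β-catenin gene of Wnt signalling and cell junctions, had a centred log2 ratio of −0.04, and its genotypes overlapped.

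Most of the genes flanking PARP3 lay on the lower side, as did 89.0% of the genes in the run of 3p. The 5 on its left side and the 5 on its right side lay from 51.4 to 52.0 Mb, and of these 10 genes 8 had a ratio below 0 and 2 above. The libraries of the genotypes did not overlap in 5 of them, 4 lower and 1 higher, and a single gene of the 10 was called. Over all 11441 genes of the bins, 11.4% had all PARP3-/- libraries below all WT libraries and 12.2% had them above. Over all 17144 tested genes, 3.33% were called lower and 1.36% higher. RAD54L2, a helicase-like protein, had 87.3, 87.8 and 92.9 CPM in WT and 64.3, 65.0 and 63.6 CPM in PARP3-/-, and it was lower with a log2 fold change of −0.47 ± 0.067 (SE, edgeR adjusted p = 0.0103, up to 0.0855 and not called without WT replicate 3, PARP3-/- replicate 2 or PARP3-/- replicate 3). PCBP4, which binds poly(C) stretches in RNA, had 112, 134 and 125 CPM in WT and 70.1, 97.9 and 93.8 CPM in PARP3-/-. RPL29, another protein of the large ribosomal subunit, had 233, 219 and 205 CPM in WT and 175, 182 and 172 CPM in PARP3-/-. RRP9, which is required for the processing of ribosomal RNA and is the nearest of the 5 on the left, went the other way, with 59.6, 54.2 and 52.4 CPM in WT and 60.8, 73.2 and 72.7 CPM in PARP3-/-. The genotypes did not overlap in any of the 4 genes with values here, nor in ABHD14B at a centred log2 ratio of −0.18. PARP3 itself had 34.9, 22.4 and 24.3 CPM in WT and 19.1, 22.5 and 19.5 CPM in PARP3-/-, with a log2 fold change of −0.42 ± 0.18 (SE, edgeR adjusted p = 0.307, or 0.0469 with the block).

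The lower stretch of chromosome 3 went on beyond the centromere. On 3q the 4 kept bins from 95 to 115 Mb had a median of −0.255 ± 0.051 over 55 genes, and the single bins stood at −0.131, −0.274, −0.222 and −0.265. The next bin, from 115 to 120 Mb, was at −0.0166, and the following one at 0.00286. The remainder of 3q stayed within 0.1 apart from the bins at 145 to 150 Mb (0.118) and 165 to 170 Mb (0.137). By segments the stretch ran from PROS1, the gene of protein S, to ATP6V1A, a subunit of the proton pump of acidic organelles, at 113.8 Mb, with a median of −0.260 ± 0.051 over 54 genes.

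At this border the 20 genes before it had a median of −0.283, with 18 of them below 0, and the 20 genes after it a median of 0.0126, with 8 below 0. ATP6V1A had 194, 211 and 214 CPM in WT and 157, 156 and 161 CPM in PARP3-/-, with a log2 fold change of −0.38 ± 0.076 (SE, edgeR adjusted p = 0.0371, up to 0.190 and not called without any of the libraries other than WT replicate 1). GRAMD1C, a lipid transfer protein whose gene starts 0.0161 Mb after the end of ATP6V1A, had 4.22, 7.41 and 6.66 CPM in WT and 6.34, 8.13 and 7.20 CPM in PARP3-/-. The genotypes overlapped in GRAMD1C but not in ATP6V1A. When each library was left out in turn the border fell at the same gene in 5 of 6 cases. Without PARP3-/- replicate 1 it was placed farther along the arm, before POGLUT1 at 119.47 Mb. Among the genes of highest count in this stretch, RPL24 of the large ribosomal subunit lay lower, at 386, 374 and 344 CPM in WT and 278, 304 and 286 CPM in PARP3-/-. ALCAM, a cell adhesion molecule, lay higher, at 188, 202 and 180.3 CPM in WT and 233, 242 and 237 CPM in PARP3-/-. COL8A1, a short-chain collagen, was also higher in each PARP3-/- library than in any WT library, with a centred log2 ratio of 0.29.

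**Figure D3:**
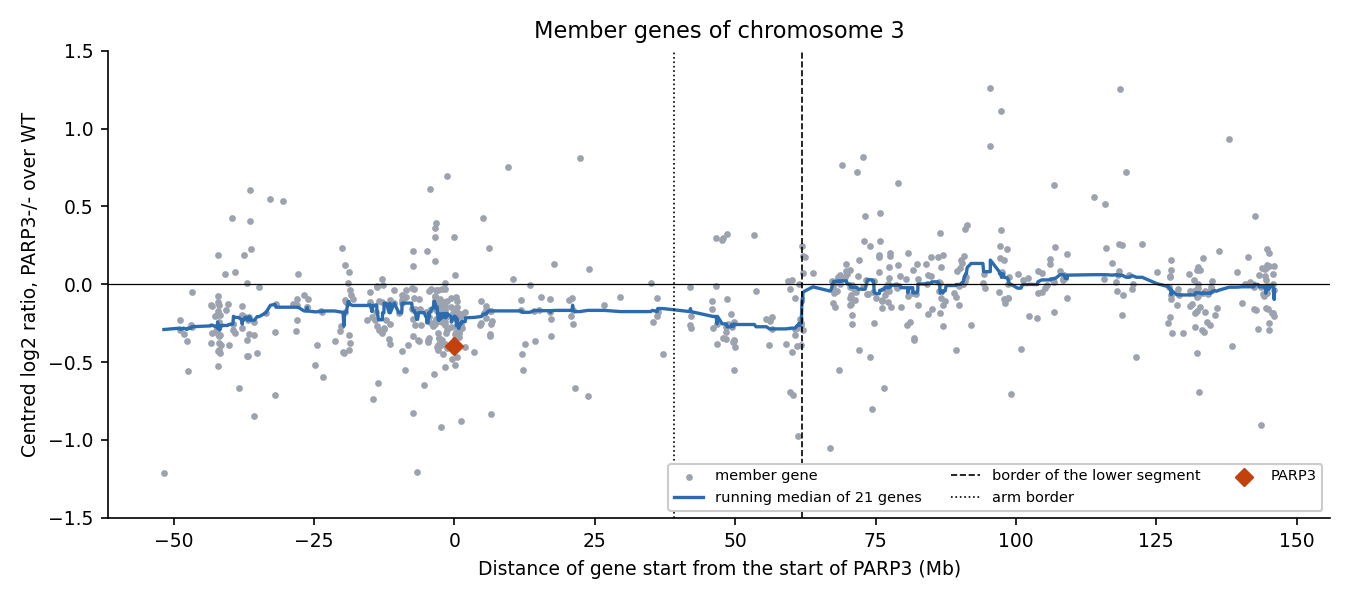
Centred log2 ratio of PARP3-/- over WT (y axis) of the member genes of chromosome 3 against distance of their start from that of PARP3 (x axis, Mb), with a running median of 21 genes. The y axis ends at 1.5 on either side and 6 of the 682 genes lie beyond it. The running median lies below 0 along 3p and past the centromere, and returns to about 0 after ATP6V1A.

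Chromosome 7 held lower and higher bins on its opposite arms. On 7p the bins from 0 to 15 Mb stood at 0.0736, 0.0528 and 0.0506, and the bin from 15 to 20 Mb at −0.263. After a bin at −0.0485, the 5 bins from 25 to 50 Mb formed a lower run with a median of −0.181 ± 0.003 over 82 genes. The spread within a genotype was wider than this error over pairs, with an SD over library medians of 0.046 in WT and 0.036 in PARP3-/-. Without WT replicate 1 the median of this lower run was −0.211. On 7q all 20 kept bins lay above 0 and 18 of them above 0.1. The higher bins there made up runs from 60 to 80 Mb (0.186 ± 0.030, 62 genes), 85 to 120 Mb (0.143 ± 0.016, 165 genes) and 125 to 160 Mb (0.153 ± 0.021). The bins between them stood at 0.0998 and 0.0717. Without WT replicate 1 the run from 60 to 80 Mb had a median of 0.123.

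The change of level on 7p was placed at ETV1, a transcription factor of the ETS family, which starts at 13.9 Mb. The 20 genes before it had a median of 0.0452, with 3 of them below 0, and the 20 genes from ETV1 on a median of −0.215, with 14 below 0. This border stayed at ETV1 in all 6 cases with a library left out. ETV1 itself overlapped between the genotypes, with 128, 96.5 and 118 CPM in WT and 114, 88.4 and 94.2 CPM in PARP3-/-.

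The lowest of the 512 bins lay at 45 to 50 Mb of 7p, with a shift of −0.352 ± 0.074 over 8 genes. ABCA13, a large lipid transporter, had 54.3, 33.9 and 40.7 CPM in WT and 22.6, 19.4 and 21 CPM in PARP3-/-, with a log2 fold change of −1.03 ± 0.17 (SE, edgeR adjusted p = 0.0200, up to 0.103 and not called without WT replicate 3, PARP3-/- replicate 2 or PARP3-/- replicate 3). ADCY1, an adenylyl cyclase that makes cyclic AMP, had 27.6, 18.3 and 20.7 CPM in WT and 15.3, 9.23 and 9.69 CPM in PARP3-/-. IGFBP3, which binds insulin-like growth factors, had 27.5, 11.7 and 12.1 CPM in WT and 13.9, 8.37 and 8.26 CPM in PARP3-/-, so its genotypes overlapped. The remaining genes with a ratio below 0 were NACAD (−0.39), TBRG4, which acts on mitochondrial RNA (−0.31), the uridine phosphorylase gene UPP1 (−0.24) and the DNA damage checkpoint gene HUS1 (−0.11). TNS3, which links integrins to the cytoskeleton, was the exception, with 420, 468 and 471 CPM in WT and 539, 549 and 503 CPM in PARP3-/-.

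The highest of the 512 bins was the first kept bin of 7q, at 60 to 65 Mb, with a shift of 0.285 ± 0.077 over 7 genes. It held 6 zinc finger genes (ZNF736, ZNF680, ZNF107, ZNF138, ZNF273 and ZNF117), of the large family of DNA-binding repressor proteins, and ERV3-1, which derives from an endogenous retrovirus. All 7 had a ratio above 0. ZNF117 had 5.29, 4.81 and 5.39 CPM in WT and 10.7, 8.26 and 8.76 CPM in PARP3-/-, with a log2 fold change of 0.84 ± 0.14 (SE, edgeR adjusted p = 0.0183, up to 0.0850 and not called without replicate 2 or 3 of either genotype). The other 6 lay between 0.16 and 0.34. Zinc finger genes of a cluster are close copies, so reads shared by them may be left uncounted or split.

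Of the genes with the highest counts on 7q, MCM7, part of the replicative helicase, had 485, 986 and 859.6 CPM in WT and 616, 1105 and 1033 CPM in PARP3-/-. CDK6, a kinase that drives cells out of G1 phase, had 366, 514 and 459 CPM in WT and 431, 594 and 600.1 CPM in PARP3-/-. In both genes each PARP3-/- library lay above the WT library of the same number, while the genotypes overlapped. SMO, the Hedgehog signal transducer, lay at 129 Mb in the higher stretch but had 23.3, 27.1 and 26.9 CPM in WT and 7.70, 7.54 and 7.25 CPM in PARP3-/-. Its log2 fold change was −1.78 ± 0.098 (SE, edgeR adjusted p = 0.000242, and at most 0.00356 with a library left out).

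**Figure D4:**
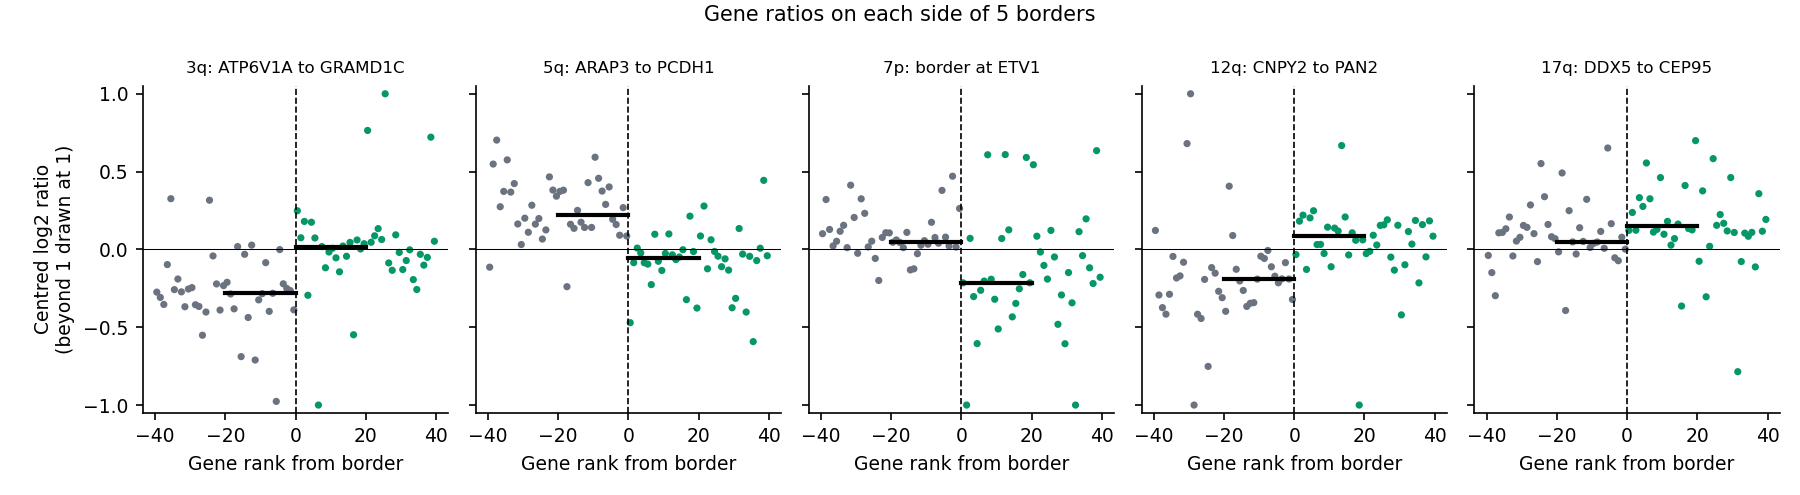
Centred log2 ratio of PARP3-/- over WT (y axis) of the 40 member genes on each side of 5 of the 7 borders, in order along the arm (x axis, rank from the border), with black lines at the medians of the 20 genes on each side. Values beyond 1 in size are drawn at 1. At the 7p border the medians are 0.0452 and −0.215, and at the 3q border −0.283 and 0.0126.

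Chromosome 12 was lower on both sides of its centromere and higher farther along its long arm. On 12p the bins from 0 to 15 Mb had a median of −0.189 ± 0.030 over 96 genes and those from 20 to 35 Mb a median of −0.152 ± 0.038 over 47 genes, and the bin between these runs stood at 0.064 ± 0.15 over 7 genes. On 12q the bins from 40 to 55 Mb had a median of −0.216 ± 0.013 over 118 genes, of which 106 had a ratio below 0. The bin from 55 to 60 Mb, at −0.0438, contained the border. The bins from 65 to 80 Mb formed a higher run with 0.181 ± 0.040 over 45 genes. The library medians in the lower run of 12q were 0.143, 0.117 and 0.0994 in WT and −0.130, −0.111 and −0.112 in PARP3-/-.

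The 12q border was placed between CNPY2, a protein of the secretory pathway at 56.3 Mb, and PAN2, part of a complex that trims poly(A) tails, and the genes overlap at their ends. The 20 genes before it had a median of −0.190, with 18 below 0, and the 20 after it a median of 0.0839, with 6 below 0. With each library left out in turn the border stayed at 56.3 Mb, and it fell at the same gene in 3 of 6 cases. CNPY2 had 63.4, 69.9 and 69.7 CPM in WT and 51.2, 55.6 and 56.1 CPM in PARP3-/-, without overlap. PAN2 had 106, 56.2 and 65.0 CPM in WT and 97.0, 57.0 and 66.1 CPM in PARP3-/-, and its replicate 1 libraries stood well above the others in both genotypes.

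Genes of energy metabolism and the cytoskeleton with high counts lie in these stretches of chromosome 12. GAPDH, a glycolytic enzyme often used as a reference gene, had 4639.7, 5213 and 4899.7 CPM in WT and 4357, 5113 and 4750.0 CPM in PARP3-/-, a centred log2 ratio of −0.06 with overlapping genotypes. TUBA1B, an α-tubulin, had 597, 1350.4 and 1157 CPM in WT and 591, 1124 and 1073 CPM in PARP3-/-. PHB2, a scaffold protein of the inner mitochondrial membrane, had 364, 360.1 and 351 CPM in WT and 283, 307 and 297 CPM in PARP3-/-, without overlap. ERBB3, a receptor of the EGF receptor family located just before the border, had 738, 462 and 603 CPM in WT and 576, 402 and 421 CPM in PARP3-/-. In the higher run NAP1L1, a histone chaperone, had 622, 605 and 606 CPM in WT and 798, 774 and 763 CPM in PARP3-/-, so that its genotypes were well apart. CCT2, a subunit of the chaperonin that folds actin and tubulin, and MDM2, the ubiquitin ligase of p53, stood at 0.14 and 0.02 in the same run.

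The long arms of chromosomes 1 and 15 were higher almost from end to end. On 1q all 21 kept bins lay above 0 and 19 of them above 0.1. They made runs at 145 to 160 Mb (0.113 ± 0.035, 176 genes), 165 to 200 Mb (0.134 ± 0.041, 111 genes) and 205 to 250 Mb (0.140 ± 0.032, 190 genes), and the bins between these stood at 0.0801 and 0.0605. Without WT replicate 2 the first of these runs had a median of 0.0983. The library medians over all 552 genes of 1q were −0.0514, −0.0491 and −0.0587 in WT and 0.0631, 0.0590 and 0.0505 in PARP3-/-. Although the arm lay higher as a whole, 122 of its genes (22.1%) had a ratio below 0.

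LMNA, the gene of nuclear lamins A and C and the one with the highest count on 1q, had 1240.5, 1537 and 1436 CPM in WT and 1478, 1924 and 1800.0 CPM in PARP3-/-. NUCKS1, a chromatin protein, had 976, 1339.8 and 1259.5 CPM in WT and 1198, 1384 and 1348 CPM in PARP3-/-. PARP1, the abundant poly(ADP-ribose) polymerase of DNA repair, had 368, 545 and 533 CPM in WT and 460.2, 621 and 592 CPM in PARP3-/-. In each of these genes the PARP3-/- library exceeded the WT library of the same number in all 3 pairs, but the genotypes overlapped. LAMC1, the laminin γ1 chain, was opposite to its run, with 753, 555 and 683 CPM in WT and 678, 493 and 506 CPM in PARP3-/-. HNRNPU, a nuclear matrix and RNA-binding protein, stood at −0.02, and the nestin gene NES at −0.06.

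On 15q all 16 kept bins lay above 0 and 13 above 0.1. The 11 bins from 50 to 105 Mb formed the longest higher run, with 0.172 ± 0.019 over 253 genes and bins from 0.116 to 0.269. Its highest bins, from 75 to 90 Mb, stood at 0.246, 0.269 and 0.207, and they were the only higher run left when the limit was raised to 0.2. Before the run came bins at 0.214 (35 to 40 Mb) and 0.169 (40 to 45 Mb) and a lower value of 0.0676 (45 to 50 Mb). ALDH1A3, which makes retinoic acid, had 2100.5, 1939 and 1910.3 CPM in WT and 2522, 2471 and 2411 CPM in PARP3-/-, without overlap. PKM, the pyruvate kinase of glycolysis, had 1775, 2745 and 2440.5 CPM in WT and 2178, 3327 and 3059.7 CPM in PARP3-/-, and ANXA2, a calcium-dependent membrane-binding protein, had 856, 1644 and 1268 CPM in WT and 1106, 2003 and 1816 CPM in PARP3-/-. Both overlapped between the genotypes, with their replicate 1 libraries lowest. THBS1, a matrix glycoprotein in the bin at 35 to 40 Mb, had a larger ratio than its neighbours, with 1332, 3047 and 2054 CPM in WT and 3239.6, 5713 and 5032 CPM in PARP3-/-, a centred log2 ratio of 1.15. Its values spread widely within each genotype, and no gene of that bin was called higher by edgeR.

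Chromosome 17 had higher runs on its long arm at 25 to 40 Mb (0.116 ± 0.015, 111 genes) and at 65 to 85 Mb (0.165 ± 0.041, 164 genes), with bins from −0.0285 to 0.0915 between them. The first of these fell within the limit without PARP3-/- replicate 2 (0.0933). By segments the end of the arm, from CEP95 to METRNL, was at 0.165 ± 0.040 over 166 genes, and the genes before it at 0.0665, so the step there was smaller than on 3q, 7p and 12q. With a library left out this border fell at CEP95 in 1 of 6 cases, its place ranged from 64.0 to 64.5 Mb, and it was not placed without WT replicate 2. ACTG1, the cytoplasmic γ-actin and the gene of highest count in this stretch, had 4366, 3849 and 3343 CPM in WT and 5489.9, 5498 and 5018 CPM in PARP3-/-, without overlap. FASN, the fatty acid synthase, had 918, 745 and 825 CPM in WT and 1109, 947 and 881 CPM in PARP3-/-. P4HB, a protein disulfide isomerase, stood at 0.17 and overlapped between the genotypes.

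On chromosome 5 a gene family made up much of a higher bin. The bin at 140 to 145 Mb of 5q had a shift of 0.141 ± 0.040 over 71 genes, and 39 of them were clustered protocadherins, cell surface proteins by which neural cells tell self from others. The median of the 39 was 0.284, with 37 above 0 and 2 below, and the median of the 32 other genes was −0.0227. By segments the higher stretch ran from PCDHA1 at 140.8 Mb to ARAP3 at 141.7 Mb and held 45 genes, with a median of 0.251 ± 0.079. PCDHGC3, the protocadherin with the highest count, had 97.9, 61.4 and 75 CPM in WT and 117, 93.4 and 92.1 CPM in PARP3-/-. Other genes of the stretch lay on the same side, with the general transcription factor TAF7 at 0.16, the formin DIAPH1 at 0.19 and the histone deacetylase HDAC3 at 0.16. Gene models of the PCDHA and PCDHG clusters overlap and share exons. According to the methods reads were counted in union mode, which leaves out a read that overlaps several gene models, so the clusters are less certain than single genes and their members are not independent. With a library left out, the border before PCDHA1 fell at the same gene in 4 of 6 cases, and the border before PCDH1 lay within 5 Mb in 4 of 6 cases and at the same gene in 1. Neither border was placed without WT replicate 1, without PARP3-/- replicate 1 or from pairs 2 and 3 alone.

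Before the protocadherin stretch, the 288 genes of 5q had a median of −0.0278, within the limit and with overlapping genotypes, and of the segments on either side only that after the stretch lay beyond the limit. ZMAT2, just before the stretch, had a ratio of −0.10, and the 20 genes before the border a median of −0.0238. PCDH1, a protocadherin outside the clusters and the first gene after the stretch, had 91, 79.7 and 71.1 CPM in WT and 56.4, 60.9 and 56.9 CPM in PARP3-/-, without overlap. The segment from PCDH1 to TRIM52 at the end of the arm had a median of −0.108 ± 0.007 over 163 genes, and the bins from 165 to 185 Mb in it formed a lower run with −0.170 ± 0.042 over 79 genes. NPM1, the nucleolar phosphoprotein nucleophosmin, lies in that run and had 418, 464 and 422 CPM in WT and 328, 373 and 379.5 CPM in PARP3-/-. CANX, the endoplasmic reticulum chaperone calnexin, had the highest count there and overlapped, with 2149, 1535 and 1499.8 CPM in WT and 1801, 1519 and 1466 CPM in PARP3-/-. Near the centromere of 5q the bins at 50 to 55 and 55 to 60 Mb stood at −0.213 ± 0.12 and −0.292 ± 0.063, and all 15 genes of the latter had a ratio below 0.

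Shorter lower runs lay on 18q and 11p. On 18q the 5 bins from 55 to 80 Mb, at the end of the arm, had a median of −0.209 ± 0.021 over 49 genes. CDH19, a cadherin of glial and neural crest cells, had 220.3, 161 and 180.1 CPM in WT and 138, 127 and 128 CPM in PARP3-/-, and NARS, an asparaginyl-tRNA synthetase, had 561, 531 and 482 CPM in WT and 443, 445 and 441 CPM in PARP3-/-. Neither gene overlapped between the genotypes. On 11p the 3 bins from 15 to 30 Mb had a median of −0.127 ± 0.027 over 32 genes. HPS5, a subunit of a complex for lysosome-related organelles, had 214, 223 and 255 CPM in WT and 143, 140 and 147 CPM in PARP3-/-, with a log2 fold change of −0.68 ± 0.091 (SE, edgeR adjusted p = 0.00777, up to 0.0583 and not called without PARP3-/- replicate 2 or 3). LDHA, the lactate dehydrogenase A chain and the gene of highest count in that run, had 506, 1276 and 1105 CPM in WT and 525, 1065 and 957 CPM in PARP3-/-.

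Chromosome 20 was lower on its short arm without making a run. Bins at 0 to 5, 5 to 10 and 15 to 20 Mb stood at −0.161, −0.141 and −0.113, and the bin between them at −0.0398. As a segment 20p had a median of −0.104 ± 0.028 over 104 genes. SNRPB2, a protein of the U2 spliceosomal particle, had 722, 712 and 827 CPM in WT and 519.7, 522 and 555 CPM in PARP3-/-, with a log2 fold change of −0.50 ± 0.098 (SE, edgeR adjusted p = 0.0353, up to 0.178 and not called without any of the libraries other than WT replicate 1). PYGB, the brain glycogen phosphorylase, was the gene of highest count on the arm and overlapped, with 2886, 2011 and 1923 CPM in WT and 2174, 2020.1 and 2029 CPM in PARP3-/-.

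Many arms held no shifted stretch. No kept bin of 16q, 19p, 19q, 20q, 10p or 18p lay beyond 0.1, and on 1p, with 24 bins and 668 genes, only the bins at 55 to 60 Mb (−0.120) and 80 to 85 Mb (0.107) did. The 25 genes of the bin at 20 to 25 Mb of 19p were all zinc finger genes and had a median of 0.0106, unlike the zinc finger bin of 7q. A histone gene cluster filled 46 of the 74 places of the bin at 25 to 30 Mb of 6p, whose shift was −0.0886, and −0.0407 without them. Histone genes of a cluster are also close copies. Removing the HOX genes, which pattern the body axis, from the bin at 25 to 30 Mb of 7p moved its shift from −0.179 to −0.293 over the other 13 genes.

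Genes outside the rule gave further values for the same regions, in the same libraries and the same contrast. Genes that are not protein_coding, with a mean count of 10 or more, had a median of the same sign as the member genes in all 12 segments. On 3p the 89 genes of this class had a median of −0.140, and 66 (74.2%) were below 0. On 7q the 154 genes had a median of 0.103, on 15q the 161 genes 0.0958, on 1q the 170 genes 0.101 and on the end of 17q the 71 genes 0.129. On the start of 12q the 41 genes had a median of −0.170 and on 20p the 27 genes −0.119. In 11 of 12 segments, the last being 20p, these medians were closer to 0 than those of the member genes. Many of these genes are antisense to or overlap a protein_coding gene, and the strand setting of the counting was not given, so they are not separate evidence.

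Protein_coding genes with a mean count of 10 to under 50 had a median of the same sign in 11 of the 12 segments. Their medians were −0.287 over 29 genes on 3p and −0.249 over 20 genes on the start of 12q, but 0.0265 over 43 genes on 15q. On 1q the 47 genes of this class had a median of −0.0803, opposite to that of the member genes. At these counts the ratio of a single gene is imprecise.

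**Figure D5:**
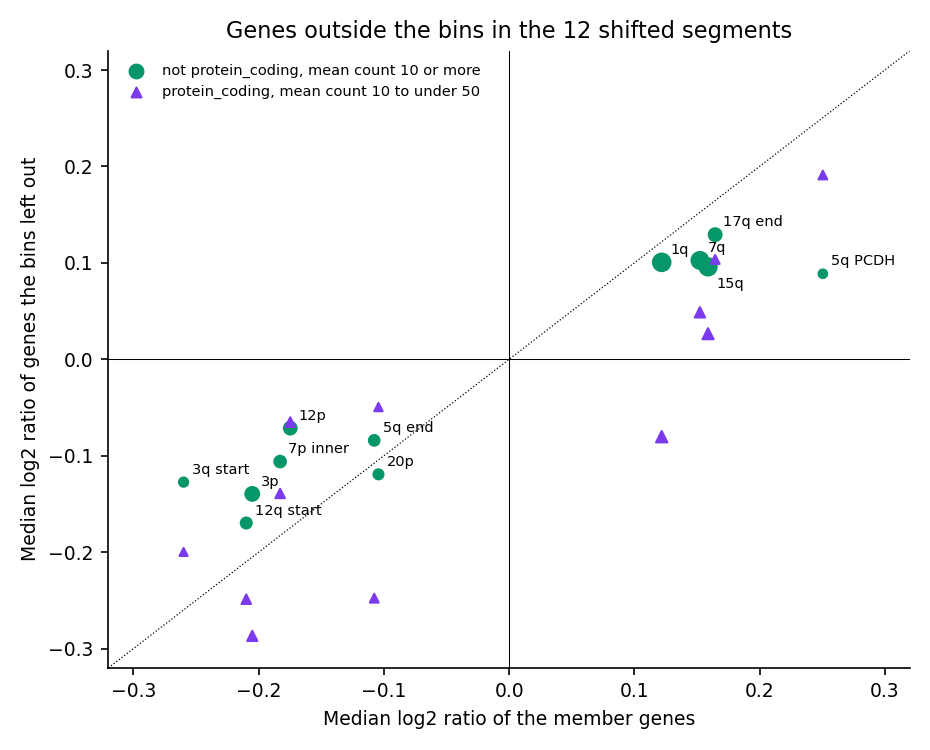
Median centred log2 ratio of gene classes that the bins leave out (y axis) against that of the member genes (x axis) in the 12 segments. Marker size grows with the number of genes and the dotted line marks equal values. Medians of genes that are not protein_coding share the sign of the member genes in all 12 segments, and those of low-count protein_coding genes in 11.

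From a list of 61 genes known for copy number change or loss in glioma and other cancers, 54 were genes of the bins and 22 lay in a shifted bin. All 11 in lower bins had a ratio below 0, and 8 of the 11 in higher bins a ratio above 0. The bins were called lower or higher by the median of their genes, so these signs were largely fixed by that choice, and of all genes in lower bins 84.3% lay below 0 and of all in higher bins 82.9% above 0. VHL, the tumour suppressor of the hypoxia pathway on 3p, had 109, 96.2 and 102 CPM in WT and 81.6, 72.7 and 72.6 CPM in PARP3-/-, with a log2 fold change of −0.44 ± 0.086 (SE, edgeR adjusted p = 0.0369). TGFBR2, a TGF-β receptor on 3p, had 77.8, 74.8 and 73.6 CPM in WT and 63.1, 57.1 and 56.6 CPM in PARP3-/-, with a log2 fold change of −0.36 ± 0.076 (SE, edgeR adjusted p = 0.0491). Together with SMO these were the 3 of the 22 with an adjusted p under 0.05, and 4 of the 54 had one, against 3.33% of all 17144 genes called lower and 1.36% called higher. The 22 were picked by bins of the same contrast, and nothing is read from their count. The calls of VHL and TGFBR2 were each lost with 5 of the 6 libraries left out in turn, with adjusted p up to 0.191 and 0.247, and stood without PARP3-/- replicate 1 (0.0381 and 0.0465). The chromatin regulators PBRM1, SETD2 and BAP1 on 3p stood at −0.20, −0.18 and −0.15. On 7q the growth factor receptor gene MET stood at 0.17 and the kinase gene BRAF at 0.21.

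Properties of the genes were set side by side for the kinds of bins. The median GC content of transcripts was 44.3% in lower bins, 43.3% in higher bins and 43.3% in the others, and the median transcript lengths were 1047, 1019.5 and 1054.5 bases. In the same order the median mean count was 1409, 1889.7 and 1592 reads, and the median number of genes per bin 12.5, 18 and 17. Across the 512 bins Pearson's r of the shift was −0.0589 with GC content, −0.0083 with log2 length, 0.125 with log2 mean count and 0.0750 with log2 number of genes. With the difference of WT replicate 1 from the other WT libraries it was −0.0488. The shifts of separate pairs had an r of 0.744 between pairs 1 and 2, 0.741 between pairs 1 and 3 and 0.872 between pairs 2 and 3. The points share gene sets and libraries, and these values are given without a test.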

How the data were processed

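The authors deposited a single table of 33841 genes with raw read counts of the 6 libraries. Per the labels, reads were aligned to hg38 with STAR 2.5.3a and counted with HTSeq 0.6.1p1 (in union mode, according to the methods), and the notes also name cutadapt 1.10, Bowtie2 2.2.8 and DESeq2 1.16.1. The strand setting of the counting was not given in the sources used here. The labels call the molecule polyA RNA, whereas the protocol describes total RNA depleted of ribosomal RNA. The study's design text names exons 2 and 9 of PARP3, and its methods exons 2 and 5. The median transcript length per gene, as deposited, was used for the length check. The table's 12 other columns of values per sample were not used, nor were its columns of the authors' own comparison of the genotypes (fold changes and p-values).

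Counts were normalized with TMM in edgeR 4.0.16 (R 4.3.3) after filterByExpr with a minimum count of 10, and set on the scale log2(CPM + 0.5). A gene's log2 ratio, PARP3-/- mean minus WT mean, is called centred after subtraction of the median over all member genes (0.00698). The pseudocount of 0.5 understates the ratios of low genes. Bin medians per library were tested with limma 3.58.1 across all 512 bins, and genes with edgeR's quasi-likelihood test across 17144 genes, both with Benjamini-Hochberg adjustment and an adjusted p under 0.05. Both tests are two-sided. The SE of an edgeR fold change was computed as its absolute value divided by the square root of the test's F statistic. Segments held at least 10 genes, with a penalty of 3.56 per border. Arms were divided at centromere positions rounded to whole Mb. The study calls its samples biological replicates, and p-values measure the spread between these samples. They cannot be read as the spread between clones, as the labels do not say which clone was sequenced. Precision is limited by 3 libraries per genotype and 29692065 to 46010369 counts per library.

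Same-numbered libraries of the genotypes deviated together from their genotype means over genes, with correlations of 0.863, 0.817 and 0.536, which the labels do not explain. Libraries of different numbers ranged from −0.869 to 0.733, with 0.733 for WT 2 with PARP3-/- 3 and 0.441 for WT 3 with PARP3-/- 2, so numbers 2 and 3 are set apart less clearly than number 1. Deviations from a genotype's own mean are tied to each other, and replicate 1 stood apart in both genotypes, so these correlations are not independent. As every same-numbered correlation was over 0.1, the numbers were taken to pair the libraries. Fits that hold the number as a blocking factor are given as an alternative. The pairing was thus chosen from the same data as the SD over pairs and the block fits that use it.

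Named genes were the 5 with the highest mean count in each run and segment, those at each border, 5 on each side of PARP3, all of the lowest and highest bins, and members of a cancer gene list in shifted bins, from which examples are given, and some are not reported here. Members and lists were chosen with earlier results of these data known. Alternatives were other normalization, count minimum, bin grid, limit, run length, statistic, pseudocount, GC and length correction, DESeq2 1.42.0, the block and each library left out. Those for segments, and pairs 2 and 3 alone, were chosen after seeing the data.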

Additional observations from a re-analysis of the deposited data

How the results depend on the processing

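No run median changed sign under the alternatives run, which reuse libraries that chose the runs, so the signs were largely fixed by that choice. Of 304 run medians under alternatives (19 runs, 16 alternatives each), 301 stayed beyond 0.1. The exceptions were 17q 25 to 40 Mb, at 0.0867 with the mean over genes in place of the median and 0.0933 without PARP3-/- replicate 2, and 1q 145 to 160 Mb, at 0.0983 without WT replicate 2. The mean over genes gave −0.314 on 7p, −0.193 on 11p and −0.132 on 18q.

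Lower and higher bins numbered 49 and 41 at a limit of 0.15, and 24 and 12 at 0.2, and lower bins 52 when a bin needed 10 genes. Higher runs numbered 5 at 0.15. At 0.2 there were 2 lower runs, on 3p and 3q, and 1 higher run, on 15q. With 5 or more bins per run, 3 lower and 5 higher runs were left. Doubling the segment penalty kept only the borders on 7p and 12q, with 9 segments beyond 0.1, and the cause was not tested.

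The bins called lower and higher by limma numbered 77 and 74 with the mean over genes, and 91 and 92 with the replicate block. They numbered 109 and 93 from pairs 2 and 3 alone, and 33 were lower without the genes called by edgeR, with fewer genes per bin. With a library left out they ranged from 19 to 67 and from 9 to 59. The called member genes numbered 497 lower and 373 higher with DESeq2, 1562 and 1731 with the replicate block, and 1244 and 1325 from pairs 2 and 3 alone. With a library left out they ranged from 134 to 350 and from 32 to 198. Bins of 5 to 10 genes rest on few genes.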

Other observations

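The 57 shifted bins outside the runs were spread over 28 arms, and 2q held the most of them, 9. On 2q, 7 of 30 kept bins lay above 0.1 without forming a run. The highest, at 185 to 190 Mb with the integrin gene ITGAV among its genes of highest count, stood at 0.192 ± 0.044 (SD over 3 pairs), and all 13 of its genes had a ratio above 0. Others stood at 0.152 (160 to 165 Mb), 0.110 (200 to 205 Mb) and 0.116 (215 to 220 Mb, the bin of the fibronectin gene FN1). A border placed between CCNT2 and RAB3GAP1 at 135 Mb separated medians of −0.0641 and 0.0407 over 20 genes on each side. It fell at the same gene in 1 of 6 cases with a library left out, and within 5 Mb in 3 of 6. No border was placed on 2q without WT replicate 1, WT replicate 2 or PARP3-/- replicate 1, nor from pairs 2 and 3 alone.

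The bin at 0 to 5 Mb of 2p stood at −0.211 ± 0.089 over 10 genes. On 9q the bins at 65 to 70 and 70 to 75 Mb stood at −0.203 and −0.105. The bin at 20 to 25 Mb of 9p stood at 0.174 ± 0.025 over 6 genes, but MTAP, a gene of polyamine metabolism in it, had 138, 139 and 148 CPM in WT and 132, 136 and 142 CPM in PARP3-/-, on the other side of 0 and with overlapping genotypes. These bins were picked out after their values were seen.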
